A study of Drosophila melanogaster with 2 samples.

Results

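Divergent protein-coding promoters bound by the Drosophila transcription factor Arrowhead (Awh) were defined as bound regions with transcript starts of protein-coding genes on both strands close by. A region counted as divergent when its summit, the position of highest signal, lay within 500 bp of starts of 2 or more genes with at least 1 gene on each strand. Of 4781 bound regions on the 6 chromosome arms and chromosomes analysed, 415 (8.68%) met this rule. Another 1122 regions lay within 500 bp of starts on 1 strand only and are called one-strand promoters here, and 3244 lay at no such start. The divergent class thus held 27.0% of the 1537 promoter regions (95% Wilson interval 24.8 to 29.3%). Its 415 regions reached starts of 859 different genes: 393 regions had 2 genes, 19 had 3 and 3 had 4 or more.

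The regions come from chromatin immunoprecipitation followed by sequencing (ChIP-seq) on whole Drosophila melanogaster embryos aged 0 to 24 h. The flies were a transgenic strain expressing an Awh-eGFP fusion, in which a green fluorescent protein is attached to Awh. An anti-GFP antibody pulled the protein down, although a second label field gives Awh as the antibody. The labels give sheared fragments of 200 to 800 bp and 2 biological replicates of this single group. No untreated or control library was analysed here, so no test between conditions exists. Each value below is set against other bound regions, gene pairs without a shared region or all genes. A whole embryo of this age range mixes all tissues and stages, and the lists do not show in which cells a region was bound. Read totals were not given, so depth is unknown. Wilson intervals cover only the number of regions, pairs or genes and treat them as independent.

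Awh is a LIM-homeodomain protein, one of a family whose DNA-binding domain recognises short A and T rich sites around a TAAT core. In a divergent promoter, neighbouring genes are transcribed away from each other from starts on opposite strands, and 1 stretch of DNA between the starts serves both. Such pairs are common in the compact fly genome, often at genes used in most cells, and the sequence between the starts is usually free of nucleosomes when the genes are active.

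The stretches between the starts of 9 of these promoters are printed here. Each holds the summit, and they show where the searched sequences fall relative to it. They are not a sample of the class. Among the 20 strongest regions, those of CG13390 and CG17294, Mnat9 and CG1792, and Reps and l(2)gd1 also had the summit between the starts. Those stretches held none of the 3 sequences marked below and are not printed. They are the plus strand of the Release 6 genome (dm6), read 5′ to 3′ from the base after the minus-strand start to the base before the plus-strand start, and none overlaps an annotated exon. Capitals mark 3 sequences found by search on both strands: TAATTA, the core letters of LIM-homeodomain sites, TATCGATA, the site of the factor DREF, and the 7-base word CTACGCC or its reverse complement GGCGTAG. The 7-base word was chosen after the values were seen.
CG7601 and CIA30 (chr3R:29736746-29736964): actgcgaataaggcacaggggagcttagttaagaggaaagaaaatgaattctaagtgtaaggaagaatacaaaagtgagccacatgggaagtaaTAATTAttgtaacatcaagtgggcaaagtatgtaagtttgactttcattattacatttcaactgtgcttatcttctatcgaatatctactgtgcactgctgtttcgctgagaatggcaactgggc
Tcs5 and CHMP2B (chr3L:5139396-5139618): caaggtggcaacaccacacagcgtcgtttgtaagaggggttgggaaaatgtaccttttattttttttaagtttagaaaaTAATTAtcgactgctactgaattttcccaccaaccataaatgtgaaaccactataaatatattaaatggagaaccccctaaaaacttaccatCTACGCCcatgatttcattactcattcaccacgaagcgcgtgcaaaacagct
Art3 and mRpS10 (chr3R:15229409-15229664): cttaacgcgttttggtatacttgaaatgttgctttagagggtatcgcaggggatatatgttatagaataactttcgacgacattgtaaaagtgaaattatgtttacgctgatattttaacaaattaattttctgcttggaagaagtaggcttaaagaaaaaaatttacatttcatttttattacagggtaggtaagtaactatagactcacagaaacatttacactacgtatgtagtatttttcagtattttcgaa
Mkk4 and SLIRP2 (chr3R:8650797-8651083): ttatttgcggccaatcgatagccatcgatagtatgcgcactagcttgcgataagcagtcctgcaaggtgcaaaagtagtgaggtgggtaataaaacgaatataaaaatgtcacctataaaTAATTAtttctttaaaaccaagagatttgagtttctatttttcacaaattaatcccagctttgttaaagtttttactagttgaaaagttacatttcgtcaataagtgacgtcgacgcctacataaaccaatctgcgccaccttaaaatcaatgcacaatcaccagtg
CG3437 and CG3552 (chr3L:9457670-9457911): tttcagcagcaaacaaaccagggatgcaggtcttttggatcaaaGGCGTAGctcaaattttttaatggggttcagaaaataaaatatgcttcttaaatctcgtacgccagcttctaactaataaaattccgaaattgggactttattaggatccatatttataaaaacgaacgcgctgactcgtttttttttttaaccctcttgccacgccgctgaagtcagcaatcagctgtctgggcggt
fws and Lamtor3 (chr2L:17481030-17481230): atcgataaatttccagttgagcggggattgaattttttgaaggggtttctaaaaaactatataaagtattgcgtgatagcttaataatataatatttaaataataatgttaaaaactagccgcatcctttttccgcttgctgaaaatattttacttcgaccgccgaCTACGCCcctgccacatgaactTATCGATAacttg
brm and Arl1 (chr3L:15982870-15983134): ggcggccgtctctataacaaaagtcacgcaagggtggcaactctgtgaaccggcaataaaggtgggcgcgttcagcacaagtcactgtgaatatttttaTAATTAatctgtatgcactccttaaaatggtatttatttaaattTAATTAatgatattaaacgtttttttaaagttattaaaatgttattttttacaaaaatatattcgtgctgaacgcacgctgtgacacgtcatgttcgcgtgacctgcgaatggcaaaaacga
Atat and Shc (chr3L:9426759-9427009): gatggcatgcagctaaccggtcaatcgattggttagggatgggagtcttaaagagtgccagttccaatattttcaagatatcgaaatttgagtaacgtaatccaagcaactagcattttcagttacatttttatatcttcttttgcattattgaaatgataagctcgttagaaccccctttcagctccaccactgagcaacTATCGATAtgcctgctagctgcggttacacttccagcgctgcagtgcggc
RpL34b and CG8132 (chr3R:9401227-9401494): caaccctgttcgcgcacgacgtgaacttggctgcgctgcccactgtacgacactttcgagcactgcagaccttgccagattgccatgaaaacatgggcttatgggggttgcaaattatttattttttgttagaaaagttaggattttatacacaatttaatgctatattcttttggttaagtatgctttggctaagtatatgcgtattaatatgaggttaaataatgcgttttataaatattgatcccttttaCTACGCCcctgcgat
The minus-strand gene is named first in each. In the CG7601 and CIA30 stretch, the summit fell on base 98 of 219, and TAATTA began at base 95. In the Tcs5 and CHMP2B stretch, the summit was again base 98, of 223, with TAATTA from base 80 and CTACGCC from base 172. The Art3 and mRpS10 stretch held none of the 3 marked sequences, and its summit was base 129 of 256. The brm and Arl1 stretch carried TAATTA from bases 100 and 144, on either side of the summit at base 128. The fws and Lamtor3 stretch had its summit at base 101 of 201 and TATCGATA only near the Lamtor3 start, from base 189.

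The strongest divergent regions lay at 4 gene pairs, all among the 10 strongest of the whole list. CIA30, an assembly factor of mitochondrial complex I, shared its region with CG7601 (signal 1170), which was the 6th strongest of all 4781 regions. Replicate 1 gave 600 there and replicate 2 gave 571. CHMP2B, a subunit of the membrane-remodelling ESCRT-III complex, faced Tcs5, a kinase of the complex that modifies transfer RNAs, with a signal of 1163 and replicate values of 653 and 501. The region of CenG1A, a GTPase-activating protein of Arf GTPases, and of the mitochondrial ribosomal gene mRpS23 had a signal of 1153, with 604 in replicate 1 and 542 in replicate 2. The region of mRpS10, a second such ribosomal gene, and Art3, an arginine methyltransferase, reached 1134, with 595 and 547 in replicates 1 and 2. Both replicates listed each of these 4 regions.

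Below them came Ssl1, a subunit of the transcription and repair factor TFIIH, with Chro, a protein of chromosome interbands (signal 966, replicates 556 and 406). The region of Mtl and CG5611 had a signal of 936, with 472 and 459 in the replicates. Other regions among the 20 strongest served CG17294 and CG13390 (861), CG9004 and mRpL23 (846), and the Elongator subunit gene Elp5 with CG1275 (818). Mkk4, a kinase of the JNK pathway, and SLIRP2 shared a region of signal 689 (378 and 302 in the replicates). Lamtor3, of the Ragulator complex on lysosomes, and fws, which encodes a subunit of the Golgi tethering complex COG, shared one of 664 (371 and 284). The region of Arl1, a Golgi GTPase, and brm, the ATPase of the fly SWI/SNF chromatin remodeller, had 611, with 362 in replicate 1 and 243 in replicate 2. The region of l(2)gd1, a regulator of endosomal Notch traffic, and Reps had 585, and that of CG8360 and CG8372, the weakest of the 20, had 579.

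All 20 of these regions were in both replicates' own lists. The spacing of the starts, counted from the minus-strand to the plus-strand start, ran from 33 to 492 bp with a median of 222 bp. The summit lay between the starts in 12 of the 20 and within 50 bp of their midpoint in 9.

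Across all 415 divergent regions the signal ran from 54.0 to 1170, with a median of 132 and quartiles of 91.8 and 202. One-strand promoters had a median of 107 (quartiles 82.2 and 166), and the other regions had a median of 102. The ratio of the medians, divergent over one-strand, was 1.23 in the joint list, 1.30 with replicate 1 signals and 1.12 with replicate 2 signals. The quartile ranges of the classes overlapped, and the difference was not tested across conditions because there is only 1 group. Of the divergent regions, 24 had a signal of at least 500, 107 at least 200 and 289 at least 100. Divergent regions made up 8 of the 20 strongest promoter regions and 38 of the 100 strongest, against 27.0% of all 1537. How the signals were scaled was not given, and the joint values exceeded those of single replicates at these promoters, so levels are compared within a list only.

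**Figure D1:**
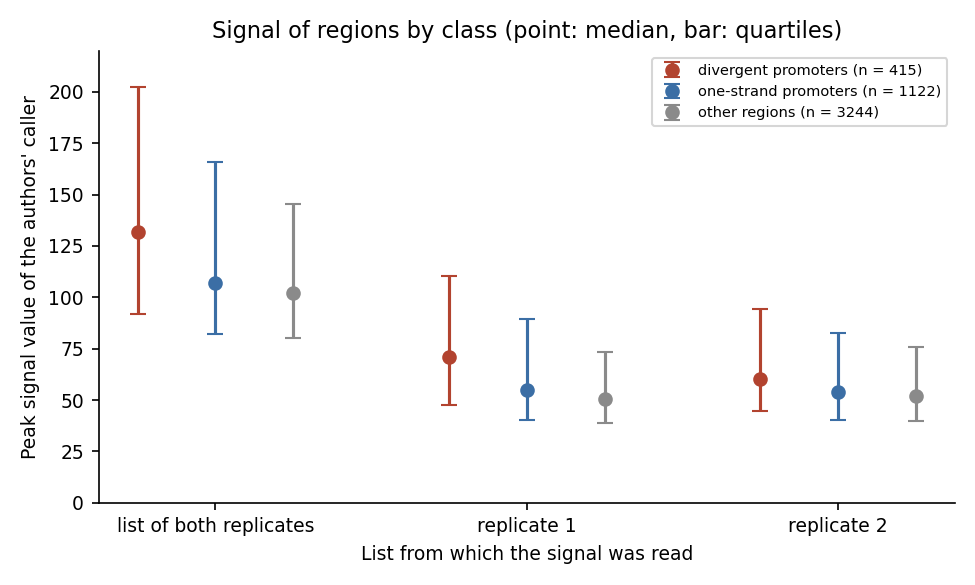
Peak signal of divergent promoters (n = 415), one-strand promoters (n = 1122) and other regions (n = 3244) in the joint list and in each replicate; points are medians and bars run from the lower to the upper quartile. The medians of the divergent class were 132, 71.0 and 60.3, above 107, 54.7 and 53.7 in one-strand promoters, and the quartile ranges overlapped.

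The replicates listed divergent regions on their own more often than they listed the other classes. In total 245 of the 415 (59.0%, interval 54.2 to 63.7%) overlapped a peak in both replicates' own thresholded lists, against 527 of 1122 one-strand promoters (47.0%, 44.1 to 49.9%) and 1300 of 3244 other regions (40.1%, 38.4 to 41.8%). Replicate 1 alone listed 72.5% of the divergent regions and 57.6% of the one-strand promoters. For replicate 2 the shares were 69.9% and 62.6%. Neither replicate listed 69 divergent regions (16.6%), which passed only in the joint list, against 301 one-strand promoters (26.8%). The divergent class also had the higher median signal, and the part of signal in these shares and the differences between classes were not tested.

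The ratio of replicate 1 to replicate 2 signals is given for 410 divergent regions with a candidate peak in both. Since the scaling of the lists and their depths are unknown, a ratio does not show which replicate was higher. Only its spread, its medians by class and the order of regions by it are described. On the log2 scale, replicate 1 minus replicate 2 had a median of 0.13 (SD 0.48 over regions) in the divergent class. The median was 0.08 (SD 0.47) in the one-strand class and -0.01 (SD 0.49) in the other regions. These SDs describe single regions and not the medians, and the difference between classes was not tested. The highest ratio was at Alp12 and Pax, the fly paxillin gene, with 171 in replicate 1 and 56.0 in replicate 2. Next came Pex11c with wda, a subunit of the SAGA acetyltransferase complex (103 and 36.6), and TBC1D23 with Pino (78.0 and 28.3). At the other end were Spps, an Sp1-type zinc finger protein, with CG13609 (29.4 in replicate 1 and 57.2 in replicate 2), Myo31DF, a myosin that sets left-right asymmetry, with CG6094 (31.2 and 60.6), and RpL4 with BCAS2 (63.0 and 119). Only RpL4 and BCAS2 among these 6 were in both replicates' own lists. Another 5 divergent regions lacked a candidate peak in 1 replicate altogether. Those of r2d2 and Herp, MED31 and CG9775, and CG8043 and Unc50 had none in replicate 1, and those of CG10802 and CG10804 and of Polr2H and CG11247 had none in replicate 2.

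The 5 weakest regions stood at CG4968 and CG5390 (signal 62.9), CG6805 and NiPp1 (62.5), pns and CG12091 (59.1), CG4239 and CG9992 (54.2) and CG15083 and CG15098 (54.0). None was in both replicates' own lists, and 4 of the 5 were in neither.

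Nearly all divergent regions had the geometry in which starts face away from each other. In 403 of the 415 (97.1%) the nearest minus-strand start lay to the left of the nearest plus-strand start, the head-to-head arrangement, and the first transcribed parts of the genes overlapped in 12. Of all 2720 annotated pairs of opposite-strand genes with starts up to 1000 bp apart, 2615 (96.1%) were head-to-head. Spacing in the 403 regions had a median of 278 bp (quartiles 216 and 377, range 8 to 897), and in 241 (59.8%) it was 201 to 400 bp. Among all 2615 head-to-head pairs the median was 301 bp, and 35.3% fell in that band.

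Pairs whose starts lay 201 to 400 bp apart shared a bound region more often than closer or wider head-to-head pairs. Over all 2720 pairs, 459 had 1 summit within 500 bp of a start of both genes, a background of 16.9%. The spacing was that of the closest starts, while the summit could lie near any start of each gene. A region with more than 2 genes can count for several pairs, as at the mod(mdg4) locus with its 10 annotated genes. Pairs 201 to 300 bp apart had one in 161 of 529 cases (30.4%, interval 26.7 to 34.5%), and pairs 301 to 400 bp apart in 95 of 394 (24.1%, 20.2 to 28.6%). Closer pairs were lower, with 71 of 419 at 1 to 100 bp (16.9%, 13.7 to 20.8%) and 47 of 354 at 101 to 200 bp (13.3%, 10.1 to 17.2%). Pairs that overlapped by up to 500 bp had one in 17 of 77 cases (22.1%, 14.3 to 32.5%). At 401 to 500 bp the share was 15.2%, at 501 to 750 bp 6.49% and at 751 to 1000 bp 0.813%. The rule itself lowers the shares of wide pairs, since the stretch in which a summit can lie within 500 bp of both starts shrinks as the spacing grows. It works the other way below 300 bp, where closer pairs have the longer stretch. Each replicate alone gave the same order for the 3 narrowest head-to-head bins, with 12.9, 9.32 and 22.9% in replicate 1 and 15.0, 9.89 and 23.4% in replicate 2. The difference between bins was not tested.

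**Figure D2:**
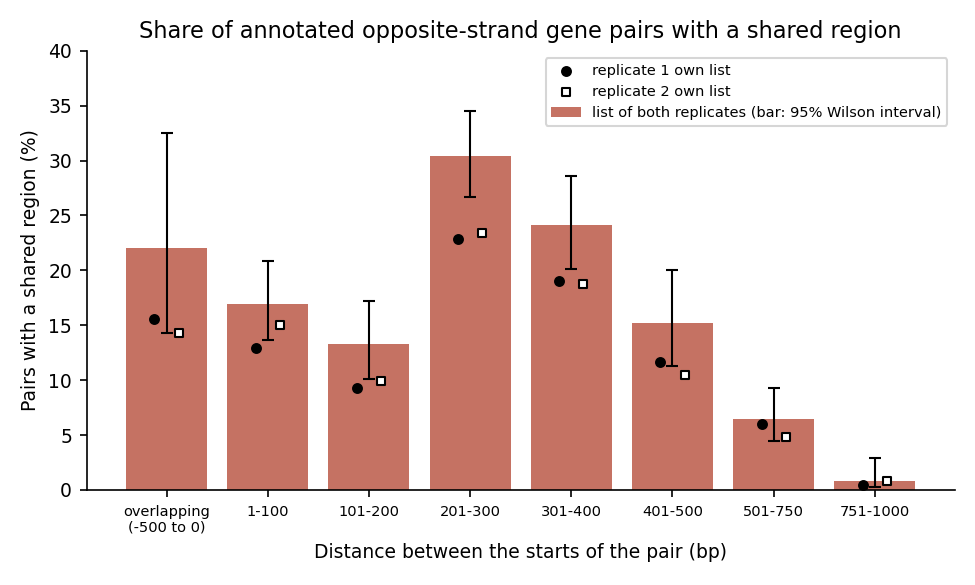
Share of annotated opposite-strand gene pairs with a summit within 500 bp of a start of both genes (y axis, percent). The x axis is the distance between their closest starts (bp). Bars are the joint list with Wilson intervals, and symbols are the lists of single replicates. The bar of 201 to 300 bp is the tallest at 30.4%, and both replicates alone place that bin highest.

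The summit sat between the starts in most head-to-head regions. This held in 333 of 403 (82.6%, interval 78.6 to 86.0%), and in 191 (47.4%) the summit was within 50 bp of the midpoint. At a spacing of 201 to 300 bp the summit was between the starts in 139 of 151 regions (92.1%), although that span was only 33.7% of the stretch the rule allows, and the median distance from the midpoint was 33.0 bp against a largest allowed distance of 374 bp. The replicates' own summits gave medians of 38.3 bp in replicate 1 and 37.0 bp in replicate 2. At 301 to 400 bp the summit was between the starts in 80 of 90 regions, with a median distance of 67.8 bp from the midpoint. Above a spacing of 500 bp the rule leaves no other place for it.

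Close pairs looked different. At a spacing of 1 to 100 bp the summit lay between the starts in 9 of 44 regions, a span that was 6.27% of the allowed stretch. In the other 35 it lay to one side, at a median of 88.0 bp from the nearer start (quartiles 54.5 and 115). Examples among the strongest regions are CG9004 and mRpL23, with starts 50 bp apart and a summit 91.0 bp from their midpoint, and Elp5 and CG1275, with starts 33 bp apart and a summit 75.5 bp away.

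The summit lay on either side of the midpoint about equally often. It lay toward the minus-strand gene in 198 regions, toward the plus-strand gene in 203 and at the midpoint in 2, with a median offset of 1.00 bp. Relative to the nearest start, the median summit was 90.0 bp upstream in the divergent class and 115 bp upstream in the one-strand class, and it was upstream in 82.2% and 71.2% of regions of these classes. The summits of the 2 replicates lay a median of 19.0 bp apart at divergent promoters and 22.0 bp apart at one-strand promoters. Among regions with a spacing of 201 to 400 bp, the 120 with the higher signals had their summit within 50 bp of the midpoint in 79 cases (65.8%). The 121 with the lower signals had it there in 64 (52.9%). Both measures also varied with spacing. At 201 to 300 bp the share within 50 bp was 69.5% and the median signal 135. At 301 to 400 bp they were 42.2% and 122. The part of spacing in the difference was not tested.

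**Figure D3:**
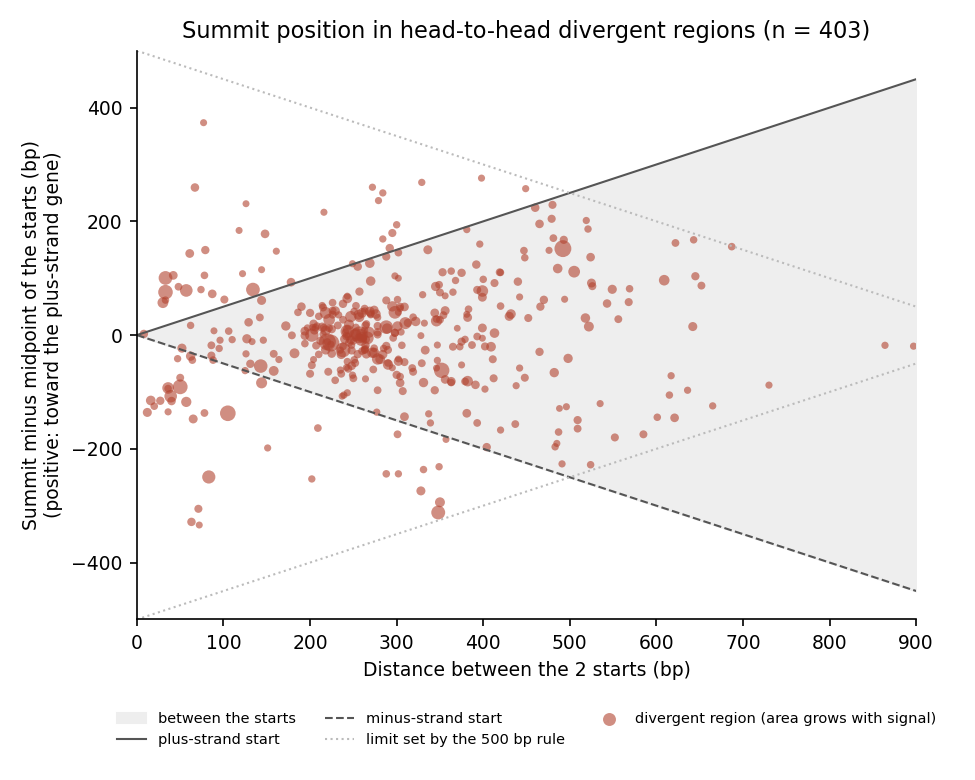
Distance of the summit from the midpoint of the starts (y axis, bp) against the spacing of the starts (x axis, bp) for 403 head-to-head divergent regions; the shaded wedge is the stretch between the starts, and point area grows with signal. Points gather on the midpoint line at 201 to 300 bp, where the median distance was 33.0 bp, and spread to either side of the wedge below 100 bp.

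The 12 overlapping pairs had signals of 71.3 to 526, with a median of 103, and 5 of them were in both replicates' own lists. The strongest was at Cyt-c-d, a cytochrome c gene, and CG31808, whose starts overlapped by 234 bp (271 in replicate 1 and 241 in replicate 2). The region of Lkb1, a kinase that activates AMPK, and CG9588 followed at 182 after those of Adck1 and CG4741 (503) and of CG4658 and CG5846 (364). The weakest was that of Dp, the partner of E2F, and Fsn, an F-box protein, at 71.3.

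Starts of 4 or more genes met at 3 regions. NC2alpha, a repressor of transcription initiation, PIG-M, an enzyme of glycolipid anchor synthesis, and 3 further annotated genes met at a region of signal 237 (133 in replicate 1 and 110 in replicate 2). COX6B, a subunit of cytochrome c oxidase, Rpp20, CG18809 and CG33932 met at one of 80.3. The third, of signal 136, lay in the mod(mdg4) locus, which is known for trans-splicing and is annotated with 10 precursor genes there, so that count reflects the annotation of 1 locus.

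Genes with an opposite-strand neighbour were bound at their promoters more often than genes without one. A summit lay within 500 bp of a start of 1894 of all 13945 protein-coding genes (13.6%). For the 5141 genes with an opposite-strand start within 1000 bp the share was 21.2%, and for the 8804 genes without one it was 9.13%. The same shares were 15.5 and 6.02% in replicate 1 and 16.4 and 7.11% in replicate 2. A gene with such a neighbour can be reached by a region centred on the neighbour's start, which raises its chance of being counted, and the difference was not tested. The 859 genes at divergent regions were 6.16% of all genes and 16.7% of the 5141. No region lay within 500 bp of a start of Awh itself.

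Cytoplasmic ribosomal protein genes stood at divergent regions most often among the 14 gene lists counted. Of the 93 listed, 56 have an opposite-strand start within 1000 bp, and 26 of these 56 (46.4%, interval 34.0 to 59.3%) were at a divergent region, against 16.7% of all such genes. In the replicates' own lists, 20 of the 26 were bound in replicate 1 and 24 in replicate 2. The strongest was RpS27, which shares its region with the nucleoporin gene Nup37 (signal 402, with 188 in replicate 1 and 223 in replicate 2). RpL7 and Ripalpha, which encodes a partner of replication protein A, had 378 (211 and 175). The region of RpL41 and NaCP60E, a sodium channel gene, had 293 (140 and 156), and that of RpL34b and CG8132 had 278 (144 and 136). Across the 26 regions the median signal was 164, with a range of 66.7 to 402, against 132 over all divergent regions. Counting promoter regions of either class, 56 of all 93 genes of this list had a summit within 500 bp of a start (60.2%), against 13.6% of all genes.

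The lists of mitochondrial genes lay near the background. Of 73 mitochondrial ribosomal protein genes, 58 have an opposite-strand start within 1000 bp, and 12 of the 58 (20.7%, interval 12.3 to 32.8%) were at a divergent region, close to the 16.7% of all such genes. The signals of those 12 regions had a median of 301 and ran from 71.9 to 1153, since mRpS23, mRpS10, mRpL23 and mRpL24 lay at strong regions. The mRpL24 region, shared with betaggt-I, had 483 (292 in replicate 1 and 188 in replicate 2). For oxidative phosphorylation the count was 10 of 44 (22.7%, 12.8 to 37.0%), led by Fum1 and the complex I gene ND-ASHI (295, with 153 and 134 in the replicates) and by ND-24 and corolla (192). Of 6 mitochondrial import genes with such a start, 1 was at a divergent region, Tom7 (124).

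The intervals of the remaining lists of genes used in most cells also included 16.7%. For RNA polymerases, general factors and Mediator the count was 14 of 58 (24.1%, interval 15.0 to 36.5%). It included Taf5 with Pex6 (304), the polymerase subunit gene Polr2B with 140up (212), MED30 with Rev1 (204) and TfIIA-L with pll (179). For tRNA synthetases it was 5 of 23 (21.7%), led by GluProRS with AP-1sigma (281). DNA repair genes gave 6 of 30. They included mei-41, the fly ATR kinase, with TH1, a subunit of the pausing factor NELF (354, with 219 in replicate 1 and 128 in replicate 2), and Irbp, the fly Ku70, with mgr (243). Vesicle transport gave 12 of 73 (16.4%), with alphaCOP of the COPI coat and CG13919 at 406 (205 and 190) after Arl1. The proteasome gave 4 of 26 (15.4%), with Rpn3 at 187, and splicing factors 5 of 34 (14.7%), with snRNP-U1-C and gukh at 152. Cell cycle genes gave 4 of 32 (12.5%), among them Cdc16 of the anaphase-promoting complex with orb (236), and DNA replication genes 3 of 29 (10.3%), among them PolD2 (263). Both replicates' own lists held 8 of the 14 regions of the polymerase list, 5 of 5 of the synthetases, 6 of 6 of repair, 6 of 12 of vesicle transport, 1 of 4 of the proteasome, 2 of 5 of splicing, 2 of 4 of the cell cycle and 1 of 2 of replication, against 59.0% of all divergent regions.

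Regulators of chromatin and of development differed in how far they could be counted. Of 28 Polycomb and trithorax group genes, 15 have an opposite-strand start, and 3 of the 15 were at a divergent region. That share of 20% (interval 7.05 to 45.2%) was close to the 16.7% of all such genes. The 3 were brm, E(z), the histone H3 methyltransferase of Polycomb repression, with Cnep1r2 (273, 156 in replicate 1 and 110 in replicate 2), and Su(z)12, its partner in the same complex, with Pfdn6 (114). Of 98 developmental transcription factor genes, only 5 have an opposite-strand start within 1000 bp and none was at a divergent region, while 13 of the 98 had a summit at a promoter, a share of 13.3% against 13.6% of all genes.

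**Figure D4:**
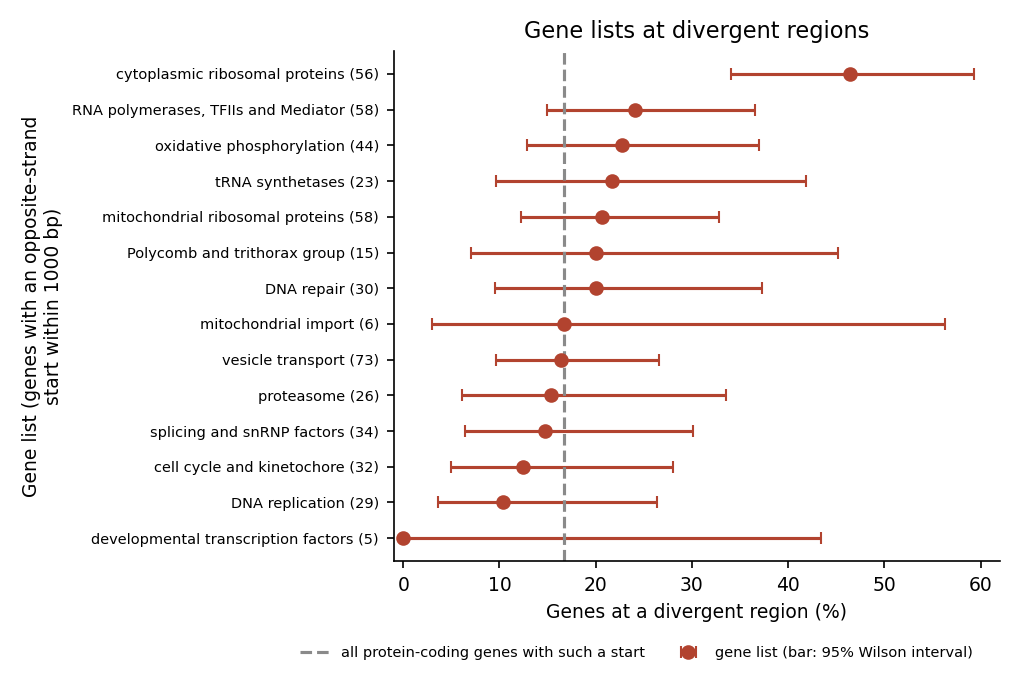
Share of genes at a divergent region (x axis, percent) among genes with an opposite-strand start within 1000 bp, for 14 gene lists (y axis, number of such genes in brackets) with Wilson intervals; the dashed line marks all genes, 16.7%. The interval of cytoplasmic ribosomal protein genes, 34.0 to 59.3%, lies above the line, and those of the other 13 lists include it.

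Listed genes faced each other at 6 regions, of 99 regions with at least 1 listed gene. They were Arl1 with brm, Rev1 with MED30, Prosbeta2 with mRpL39 (signal 102), mRpS7 with Cdk1 (98.5), Mcm2 with RPA1 (81.8) and Sec13 with ATPsynCF6 (77.0). Mcm2, of the replicative helicase, and RPA1, of the single-strand binding complex, were the 1 pair from the same list. Their starts are 519 bp apart, and their signals were 51.8 in replicate 1 and 32.6 in replicate 2.

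Divergent regions were rich in A and T, as were divergent pairs without a region. Within 100 bp of the summit the median G and C content was 32.8%, against 39.3% in both one-strand promoters and other regions. Within 100 bp of the midpoint of head-to-head pairs it was 31.3% with a region and 33.3% without one. Here and below, a pair without a region had no summit within 500 bp of a start of both genes. A single gene of such a pair could still have a summit at its own start. Of the 5141 genes with an opposite-strand start within 1000 bp, 1090 had a summit within 500 bp of a start and 859 were at a divergent region. The letters TAATTA, searched on both strands in that window, were in 104 of 415 divergent regions (25.1%, interval 21.1 to 29.4%), against 15.0% of one-strand promoters, 20.7% of other regions and 9.39% of all annotated protein-coding starts. Other words of the same base composition were also more frequent in the divergent class, TTTAAA with 41.4% against 25% of one-strand promoters and AATATT with 34.5% against 21.4%. Around the midpoint of head-to-head pairs, TAATTA was in 27.6% of the pairs with a region and in 21.1% of the pairs without one (19.4 to 22.8%). For pairs 201 to 400 bp apart these shares were 36.3% (30.7 to 42.4%) and 25.9% (22.8 to 29.4%), while TTTAAA was in 44.9 and 49.6% of the same pairs and AATATT in 40.2 and 35.4%.

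TAATTA was densest near the summit. Its density in divergent regions was 41.0 copies per 1000 regions per 20 bp within 50 bp of the summit, 21.2 at 50 to 100 bp and 13.8 farther out, up to 300 bp. In one-strand promoters the corresponding densities were 22.1, 13.7 and 11.9. Densities by distance were not counted for TTTAAA and AATATT, so this pattern is not set against words of the same base composition. Regions with and without it had like signals, with medians of 133 in the 104 with TAATTA and 130 in the 311 without. The strongest with it were those of CIA30, CHMP2B, Mtl and SLIRP2, 3 of which are printed above, and 5 of the 20 strongest regions held it.

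TATCGATA was about as frequent at divergent pairs without a region as at those with one. It was within 100 bp of the summit in 36 of 415 divergent regions (8.67%, interval 6.33 to 11.8%), against 2.94% of one-strand promoters, 0.401% of other regions and 6.45% of all starts. Around the midpoint it was in 7.01% of head-to-head pairs with a region and in 8.88% of those without. In divergent regions the density of TATCGATA was 5.30 copies per 1000 regions per 20 bp within 50 bp of the summit, from 11 copies. It was 14.0 at 50 to 100 bp and 7.09 at 100 to 300 bp. In one-strand promoters the same densities were 2.67, 3.57 and 1.81. The strongest regions with it were those of Lamtor3 and fws (664), Shc, a signalling adaptor, and Atat, a tubulin acetyltransferase (493), NaCP60E and RpL41 (293), and eIF1 and RpL28 (192).

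Among the other letters searched on both strands, GGTCACA, the core of the M1BP promoter site, was in 6.27% of divergent regions and 2.32% of one-strand promoters, but in 7.04% of all starts. The 26 divergent regions with it had a median signal of 94.7, against 134 in the 389 without; the replicate 1 medians were 38.7 and 71.8 and the replicate 2 medians 56.8 and 60.5. GAGAG, the site of GAGA factor, was in 14.5% of divergent regions, 31.7% of one-strand promoters and 25% of all starts, and in 14.1% of head-to-head pairs without a region. The E-box CAGCTG was in 13.7, 11.1 and 13.4% of divergent regions, one-strand promoters and all starts, and TATAAA in 43.1, 29.1 and 26.9%. Around the midpoint of head-to-head pairs with a region, GGTCACA was in 4.75%, CAGCTG in 12.4%, TATAAA in 43.4% and GAGAG in 16.1%. In pairs without a region the shares there were 7.50, 12.7, 39.2 and 14.1%. These differences were not tested. A match of letters is a description and does not show a bound site.

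**Figure D5:**
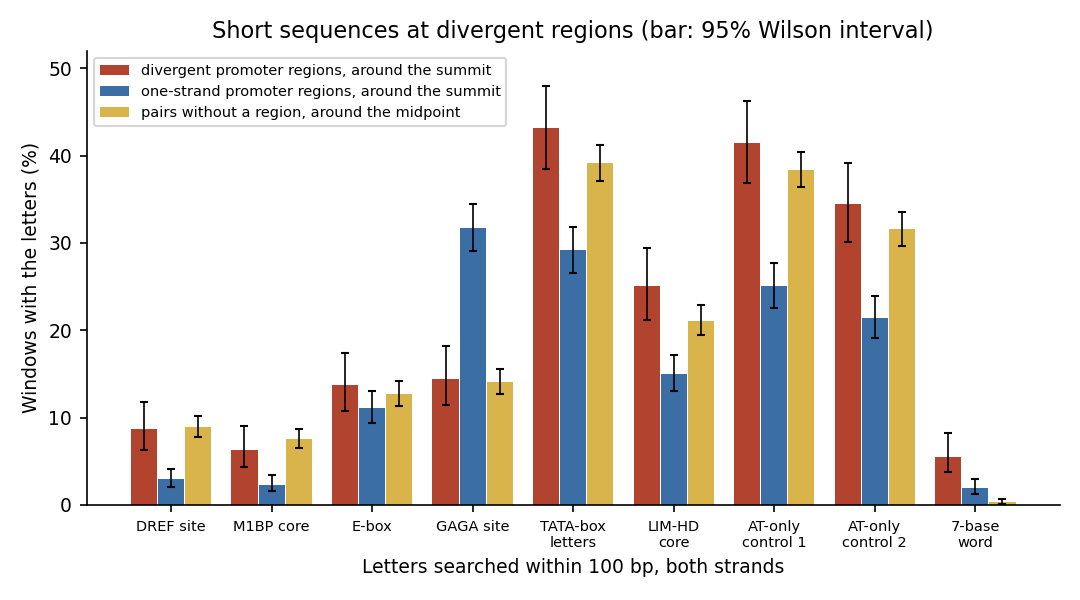
Share of windows of 100 bp to each side with short sequences (y axis, percent, Wilson intervals) for divergent regions and one-strand promoters around the summit and for head-to-head pairs without a region around the midpoint; the AT-only controls are TTTAAA and AATATT and the 7-base word is CTACGCC. Divergent regions resembled pairs without a shared region for the DREF site (8.67 and 8.88%) and the GAGA site (14.5 and 14.1%). They differed from them at the 7-base word (5.54 and 0.322%), which was picked for that difference. Around the midpoint, as in the pairs without a shared region, the word was in 1.81% of pairs with one.

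At the 500 bp limit of the rule, the members just inside were the regions of CG3919 and stwl, whose farther start was 499 bp from the summit (signal 108), CG5112 and Gnpat at 490 bp (100.4) and CG10802 and CG10804 at 489 bp (97.7). Just outside were CG14968 and ZnT63C at 501 bp (341), Gpdh1 and Sfp26Ad at 502 bp (110) and Nepl19 and Nepl20 at 507 bp (126).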

How the data were processed

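Awh-eGFP ChIP-seq peak lists from 2 biological replicates of 1 group were used. The deposited lists hold per peak a signal value and a score from the authors' processing, on dm6 per the labels. The aligner, peak caller and signal scaling were not given in the sources used here. Levels were compared only within 1 list, and ratios between the replicates' lists are of unscaled deposited values. Every conservative peak had a deposited score of at least 830 (highest 1000), a value tied to the irreproducible discovery rate (IDR).

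From these files, 5024 of 5026 conservative peaks lay on 2L, 2R, 3L, 3R, 4 and X. Overlapping peaks were merged with the summit of the strongest. Starts of protein-coding transcripts came from Ensembl release 115 (BDGP6.54, 13945 genes), and sequence from RefSeq Release 6, whose chromosome lengths held all peaks and transcripts. Replicate signals were those of the strongest overlapping candidate peak (at least 1 bp). A region was in a replicate's own list when it overlapped that thresholded list (2895 and 3560 regions for replicates 1 and 2). Gene pairs were opposite-strand genes, represented by their closest starts, up to 1000 bp apart. Shares carry 95% Wilson intervals, and no test was run, since the design has 1 group and no control. Scripts (Python 3.11.15, pandas 2.3.3, numpy 2.4.6, scipy 1.17.1) were tested on simulated regions.

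Named regions were the 20 strongest, up to 4 per gene list, those with listed genes on both strands, the 3 highest and 3 lowest replicate ratios, the 4 strongest with each of TATCGATA and TAATTA, those with 4 or more genes, the 3 on each side of the 500 bp limit and the 5 weakest. Some pairs of the 12 overlapping ones, the regions with no candidate peak in a replicate, close pairs and CTACGCC were chosen after their values were seen. The members and the gene lists were chosen with earlier results of these data known. Gene lists were matched by symbol, so close variants of a named gene are counted too. The alternatives tried were 10 settings of list, distance, starts, merging and sequence window.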

Additional observations from a re-analysis of the deposited data

How the results depend on the processing

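Of 62 recomputed values, 24 stayed within the spread of the single replicates (counts within 1.5 times) and 38 moved further. The ratio of medians, which alone has a direction, stayed above 1. Divergent regions numbered 415, and 316 to 318 in the list of 1 replicate; they were 272 with starts within 250 bp and 245 in both replicates' own lists. Their share of promoter regions was 27.0%, 26.7 to 30.8% in single replicates, 22.7% with 250 bp, 31.8% with 1 start per gene and 31.7% in both lists. The ratio of median signals, divergent over one-strand, was 1.23, and 1.12 to 1.14 in single lists. It was 1.28 in the optimal list, 1.25 with 250 bp, 1.15 with 1000 bp and 1.05 among regions in both lists. The share in both lists (59.0%) was 54.8% in the optimal list, 62.1% with 250 bp and 55.4% with 1000 bp. It was 77.7 to 78.2% when starting from a single list. Regions of that list are in it by definition, so this is their overlap with the other list. The share of pairs with a region (16.9%) was 18.1% in the optimal list, 12.9 to 13.1% in single lists, 15.3% with 250 bp, 16.6% with 1000 bp, 16.4% with 1 start per gene and 10.2% in both lists. Summits between the starts (82.6%) were 81.5 to 83.8% in single lists, 85.2% with 250 bp, 74.4% with 1000 bp and 76.6% with 1 start per gene. TATCGATA (8.67%) was in 7.91 to 10.7% in single lists, 2.65% within 50 bp of the summit and 18.3% within 200 bp. TAATTA (25.1%) was in 24.8 to 25% in single lists, 24.8% in the optimal list, 26.5% with 250 bp, 22.2% with 1000 bp, 25.2% with 1 start per gene, 24.1% in both lists, 17.8% within 50 bp and 35.2% within 200 bp. No read totals were given, so the depth behind each peak is unknown.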

Other observations

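The 7-base word CTACGCC stood out in a search made after the values above were seen. All 7-base words present within 100 bp of the summit in at least 2% of the divergent regions, counted on both strands together, were ranked by their share in divergent regions over their share around the midpoint of head-to-head pairs without a region (1 added to the latter count). CTACGCC came first of the 2731 words compared, and the next, TACGCCC and ACTACGC, overlap it. It was in 23 of 415 divergent regions (5.54%, Wilson interval 3.72 to 8.18%), 22 of 1122 one-strand promoters (1.96%), 44 of 3244 other regions (1.36%) and 194 of 19252 annotated starts (1.01%). Around the midpoint it was in 8 of 442 pairs with a region (1.81%, 0.920 to 3.53%) and in 7 of 2173 pairs without one (0.322%, 0.156 to 0.663%). Because the word was picked by this contrast, the values are a description with no test.

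Of the 20 strongest divergent regions, 6 held CTACGCC, more than held TAATTA (5) or TATCGATA (1). They were those of CHMP2B and Tcs5 (signal 1163), Mtl and CG5611 (936), CG9004 and mRpL23 (846), CG8320 and Pex11ab (708), CG3552 and CG3437 (673) and Lamtor3 and fws (664). The 23 regions with the word had a median signal of 192 (115 in replicate 1 and 84.5 in replicate 2), against 129 (70.0 and 59.2) in the 392 without it. Both replicates' own lists held 16 of the 23 (69.6%) and 229 of the 392 (58.4%). Weaker regions with the word included those of Gcn5, the SAGA acetyltransferase, with ver (265), Stt3A of the oligosaccharyltransferase with bves (361) and Sec63 with pst (76.3). The copies lay a median of 55.0 bp from the summit, and 11 of the 23 copies were within 50 bp. In one-strand promoters the median was 65 bp, with 8 of 23 copies within 50 bp. In a window of 100 bp to each side, these distances do not show copies gathered at the summit.

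Opposite-strand pairs on X had the lowest share with a region among the 5 large arms. On X, 44 of 410 pairs shared a region (10.7%, interval 8.09 to 14.1%; 7.56% in replicate 1 and 9.27% in replicate 2), against 14.6% on 2R (11.9 to 17.8%), whose interval overlaps that of X, and higher shares of up to 19.9% on 2L, 3L and 3R. Chromosome 4 had none among 11 pairs, with an interval up to 25.9% that includes the 16.9% of all pairs. The 38 regions on X had a median signal of 141, against 122 to 140 on 2L, 2R, 3L and 3R. The difference between chromosomes was not tested.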
